A study of Mus musculus with 8 samples.

Results

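Genes that mark macrophages were followed in a mouse tendon cell culture, with 39 marker genes chosen by symbol from the 19301 genes of the deposited expression table. All 39 symbols were found in the table. The cells were primary tendon stem cells (TSCs), isolated from patellar tendons of C57BL/6J mice and grown in dishes, and mRNA was sequenced after 4 days in one of 2 media. HFHG medium held high glucose and the saturated fatty acid palmitate at 300 µM, and low glucose (LG) medium held 5.5 mM glucose with DMSO, the solvent, in place of the fatty acid. Each medium had 4 libraries, described as biological replicates, and no genetic change was made in either group. The labels do not say which animals or dishes a library came from, so p-values measure the spread between these libraries. The study asked how disordered sugar and lipid supply changes TSCs, and the markers address which other cells were in the dish.

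Macrophages are phagocytic cells that live in most tissues, tendon included, and that adhere and persist in primary cultures taken from tissue. Their survival depends on colony stimulating factor 1, which is encoded by Csf1, is secreted mainly by stromal cells, and binds the receptor encoded by Csf1r. The transcription factor PU.1, encoded by Spi1, sets up the macrophage gene programme, which includes Fc receptors for antibodies, the adaptor proteins that carry their signal, the complement protein C1q, scavenger receptors and lysosomal enzymes. Some of these genes are switched on in every macrophage, and others follow the tissue and the state of the cell.

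Transcript levels are given as FPKM, the reads of a gene divided by its length and by the library total. Library totals lay between 34308108 and 37362725 reads. In a principal component analysis, the leading component held 81.0% of the variance and separated the media, and the next component held 4.18% and set LG replicate 4 apart. Of the 39 markers, 36 reached 0.5 FPKM in at least 4 of the 8 libraries and were tested within a limma fit over 11710 genes on log2(FPKM + 0.1), with Benjamini-Hochberg adjustment over all of them. On this scale the change of low genes is understated. Errors of levels are SD over 4 libraries, and errors of log2 fold changes (HFHG over LG) are standard errors. The remaining 3 markers (Cd163, Cx3cr1 and Ccr2) were at or near 0.

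Most markers were lower in HFHG, and by unequal amounts. At an adjusted p-value below 0.05, 27 of the 36 tested markers were lower in HFHG, while 30.8% of all tested genes were called in that direction. Another 4 markers (Csf1, Cd14, Cd52 and Aif1) were higher, beside 34.0% of all tested genes. These shares of all tested genes are the background for the counts by role below. The other 5 (Spi1, Fcgr1, Mertk, Cybb and Ptprc) did not pass the test. The log2 fold changes ran from -0.97 for C1qa to 0.33 for Aif1, with a median of -0.33 (-0.35 without Csf1, which stromal cells also make) and an SD of 0.34 between markers, whereas the median of all tested genes was 0.02 with an SD of 0.50. No marker passed the threshold of the study's methods (unadjusted p below 0.05 and an absolute log2 fold change over 1), which 5.33% of all tested genes passed. Under median-ratio scaling, and without LG replicate 2, 1 marker (C1qa, log2 fold change -1.01 in both) passed it, and without any other single library none did. The values of the 4 HFHG libraries lay wholly below those of the 4 LG libraries for 25 markers (28.1% of all tested genes did so) and wholly above them for 3 markers (31.1% of all tested genes).

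**Figure D1:**
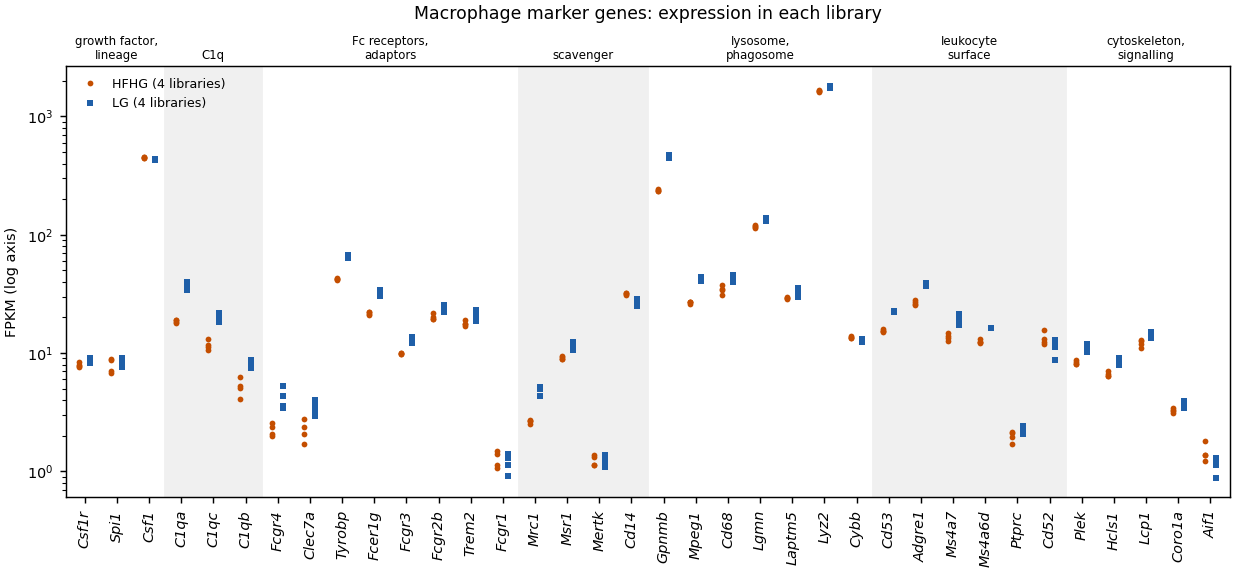
FPKM (log axis) of the 36 tested macrophage markers in each of the 4 HFHG libraries (circles) and 4 LG libraries (squares), grouped by role. Levels span from about 1 FPKM (Fcgr1, Mertk, Aif1) to more than 1600 FPKM (Lyz2), and the circles lie wholly below the squares for 25 markers.

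**Figure D2:**
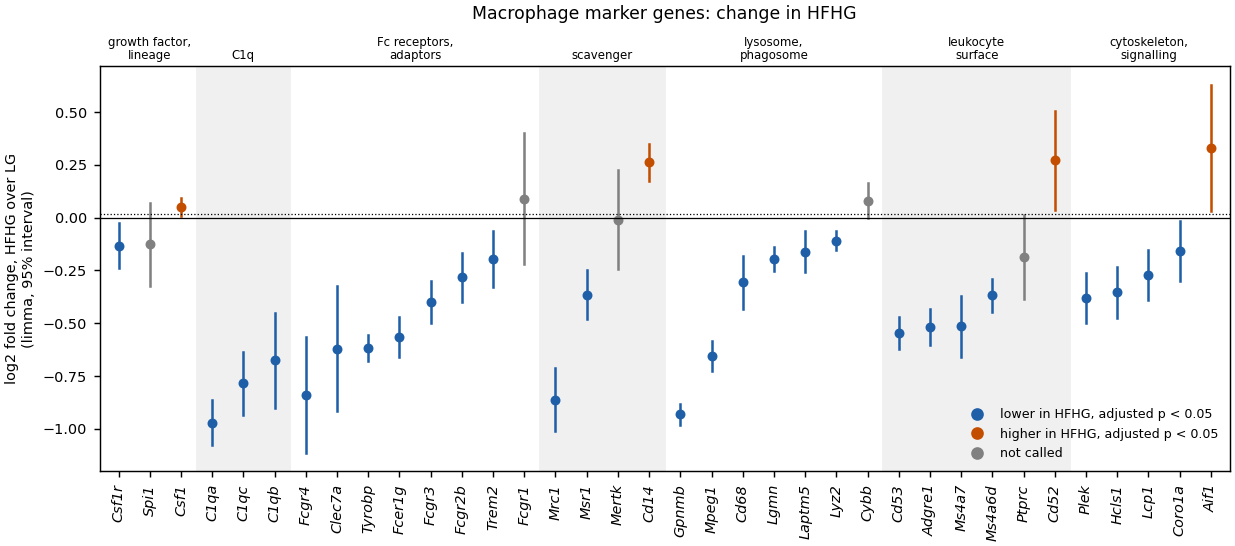
Log2 fold change of each tested marker in HFHG over LG from limma, with its 95% interval. The dotted line is the median of all tested genes. Markers range from -0.97 (C1qa) to 0.33 (Aif1), with 27 lower, 4 higher and 5 not called.

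The markers were a small share of the RNA, and a smaller one in HFHG. Together they took 0.586% to 0.595% of the reads of an HFHG library and 0.707% to 0.722% of an LG library. Lyz2, Csf1 and Gpnmb alone held 78.3% to 79.8% of the marker reads. Without those 3 genes, the markers held 1198 to 1206 reads per 1000000 in HFHG and 1521 to 1533 in LG, and the ranges did not overlap. In these bulk samples, fewer macrophages, less marker RNA per macrophage and a change of these genes in other cells cannot be told apart. FPKM is also relative to the whole library. The 15 tendon and fibroblast markers summed to 3022 to 3076 FPKM in HFHG and 1937 to 1975 FPKM in LG, and the part of that difference in the marker values was not tested.

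The growth factor was slightly higher in HFHG, its receptor slightly lower, and the lineage factor was not called. Csf1 (NCBI gene 12977, chr3:107741048-107760469 in mm10) was at 451, 454, 445 and 449.9 FPKM in HFHG and at 437, 434, 430.4 and 436 FPKM in LG. It ranked 137 of all genes by mean level. Every HFHG value lay above every LG value, but the log2 fold change was only 0.05 ± 0.02 (adjusted p = 0.0298, limma), and the call was lost without HFHG replicate 1 (0.0635), HFHG replicate 2 (0.0845), HFHG replicate 4 (0.0612), LG replicate 1 (0.0518) or LG replicate 3 (0.0869). Its size also depended on the scaling, with 0.01 under median-ratio scaling (adjusted p = 0.562), 0.11 when FPKM were rescaled to the same sum in each library (1.07e-04) and 0.27 under quantile normalization (4.88e-08). Csf1r, the receptor, was at 8.41, 7.94, 7.59 and 7.75 FPKM in HFHG and at 8.29, 9.03, 8.74 and 8.7 FPKM in LG. The groups overlapped, since HFHG replicate 1 lay above LG replicate 1. Csf1r was lower in HFHG by a log2 fold change of -0.13 ± 0.05 (adjusted p = 0.0314, limma), and this call was lost without HFHG replicate 2 (0.0554), HFHG replicate 3 (0.0902), HFHG replicate 4 (0.074), LG replicate 2 (0.0832) or LG replicate 3 (0.063). With FPKM rescaled to the same sum, the log2 fold change of Csf1r was -0.07 and was not called (adjusted p = 0.227). Spi1 ranged over 6.8 to 8.97 FPKM in HFHG and over 7.64 to 9.1 FPKM in LG, and its log2 fold change of -0.13 ± 0.09 did not pass the test (95% interval -0.32 to 0.07). Transcripts of the ligand exceeded those of its receptor by a ratio of 56.9 ± 2.28 in HFHG and 50.05 ± 2.0 in LG.

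The 3 chains of C1q, which binds antibody complexes and dying cells and starts the classical complement cascade, fell together and by more than most markers. Their genes lie side by side on chromosome 4 (C1qb chr4:136880129-136886187, C1qc chr4:136889804-136893065 and C1qa chr4:136895917-136898803, mm10). C1qa was at 18.1, 19.1, 18.2 and 19.1 FPKM in HFHG and at 37.7, 33.9, 35 and 39.8 FPKM in LG. No HFHG library came near the lowest LG library, and C1qa fell by 49% (log2 fold change -0.97 ± 0.05, adjusted p = 2.58e-09, limma). C1qc was at 11.6, 10.6, 11.3 and 13.2 FPKM in HFHG and at 18.2, 20.2, 20.2 and 22 FPKM in LG, and its log2 fold change was -0.78 ± 0.07 (adjusted p = 5.42e-07, limma). C1qb was the lowest of the 3 chains per length, at 5.26, 4.07, 6.27 and 5.06 FPKM in HFHG and 8.37, 7.48, 8.38 and 8.68 FPKM in LG, and its log2 fold change was -0.68 ± 0.10 (adjusted p = 8.94e-05, limma). The groups did not overlap for any of the chains. The ratio of C1qa to C1qc within a library was 1.6 ± 0.146 in HFHG and 1.82 ± 0.176 in LG, and the single ratios of the groups overlapped (1.45 to 1.8 against 1.68 to 2.08).

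The promoters were searched for a core PU.1 motif, GAGGAAGT on either strand (ACTTCCTC read on the gene's strand when the motif is on the other one). RefSeq (GRCm38.p6) gave a window from 250 bases before to 50 bases after the start for 30 of the 39 markers, and 3 of them (10%) held these letters, beside 3.69% of all 27025 genes in that table and 3.65% of the 9376 tested genes in it. The windows with a match were those of Fcgr4, C1qc and Cd53. Parts before the start are shown for Fcgr4 and C1qc, whose matches lay before the start, on the gene's strand with the motif in capitals. The Cd53 match lay after the start and is not shown. The Fcgr4 stretch is chr1:171018857-171018925 on the plus strand and ends at the base before the start given by RefSeq, and the C1qc stretch is chr4:136893057-136893154 on the minus strand. GENCODE M21 places both starts further upstream than RefSeq.
Fcgr4: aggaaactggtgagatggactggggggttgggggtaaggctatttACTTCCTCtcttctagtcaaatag
C1qc: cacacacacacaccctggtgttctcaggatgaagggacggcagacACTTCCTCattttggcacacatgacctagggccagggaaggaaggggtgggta
The motif begins 24 bases before the start in Fcgr4 and 195 bases before it in C1qc. A match of letters describes the sequence and is not a binding site measured in these cells.

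Of 8 Fc receptors, signalling adaptors and other receptors grouped with them, 7 were lower in HFHG (30.8% of all tested genes were) and Fcgr1 did not pass the test. Tyrobp and Fcer1g encode the small adaptors whose ITAM motif carries the signal of many myeloid receptors. Tyrobp was at 43.1, 42, 41.1 and 42.5 FPKM in HFHG and at 63.1, 63.9, 67 and 65.2 FPKM in LG, and it fell by 34.9% with no overlap (log2 fold change -0.62 ± 0.03, adjusted p = 1.38e-09, limma). Fcer1g was at 21.3, 21.1, 22.2 and 22.3 FPKM in HFHG and at 30.5, 30.6, 33.7 and 34.3 FPKM in LG, and it fell by 32.4% (log2 fold change -0.57 ± 0.04, adjusted p = 1.83e-07, limma). The 95% intervals of the changes of these adaptors overlapped (-0.68 to -0.56 for Tyrobp and -0.66 to -0.47 for Fcer1g).

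The Fc gamma receptors, which bind IgG, differed in level and in size of change. Fcgr2b (chr1:170958617-170976547), Fcgr4 (chr1:171018920-171029761) and Fcgr3 (chr1:171051174-171064935) lie in 1 cluster on chromosome 1 with Fcer1g (chr1:171229572-171234365), and they are similar in sequence, so reads could be split between them in a way the sources used here do not state. Fcgr4, an activating receptor, was at 2.55, 2.06, 2.38 and 1.99 FPKM in HFHG and at 5.22, 3.44, 3.57 and 4.32 FPKM in LG. Its values spread widely in LG, but none reached down to the HFHG values, and its log2 fold change was -0.84 ± 0.13 (adjusted p = 7.39e-05, limma). Fcgr3, another activating receptor, was at 10.1, 10.1, 9.75 and 9.75 FPKM in HFHG and at 13.8, 13.1, 12.2 and 13.5 FPKM in LG, and its log2 fold change was -0.40 ± 0.05 (adjusted p = 6.38e-06, limma). Fcgr2b, the inhibitory receptor, was at 19.5, 19.3, 20.1 and 21.8 FPKM in HFHG and at 22.1, 25.48, 25.2 and 25.4 FPKM in LG. LG replicate 1 stood below the other LG libraries and just above the highest HFHG library, and the log2 fold change was -0.28 ± 0.05 (adjusted p = 4.90e-04, limma). The high-affinity receptor Fcgr1 was low, at 1.06 to 1.48 FPKM in HFHG and 0.922 to 1.4 FPKM in LG, and its log2 fold change of 0.09 ± 0.14 did not pass the test (95% interval -0.22 to 0.40).

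Clec7a encodes dectin-1, a receptor for fungal glucans, and GENCODE M21 lists it as a polymorphic pseudogene of the reference strain. It was at 2.78, 1.71, 2.38 and 2.06 FPKM in HFHG and at 2.91, 3.28, 4.03 and 3.61 FPKM in LG, without overlap, and its log2 fold change was -0.62 ± 0.14 (adjusted p = 0.00144, limma). Trem2, a lipid-sensing receptor that signals through the Tyrobp adaptor, fell by less than that adaptor. It was at 19, 16.9, 17.6 and 17.5 FPKM in HFHG and at 23.2, 19.2, 18.8 and 20.5 FPKM in LG, and HFHG replicate 1 overlapped the LG range. Its log2 fold change was -0.20 ± 0.06 (adjusted p = 0.0138, limma), and the call was lost when FPKM were rescaled to the same sum in each library (adjusted p = 0.0598). The ratio of Trem2 to Tyrobp within a library was 0.421 ± 0.018 in HFHG and 0.316 ± 0.037 in LG, higher in each HFHG library than in any LG library, and the difference of the log2 ratio of 0.42 had an exact permutation p of 0.0286.

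The scavenger, pattern and apoptotic cell receptors split in direction, with 2 lower, 1 higher, 1 not called and 1 too low to test. Mrc1, the mannose receptor found on tissue-resident macrophages, was at 2.68, 2.52, 2.7 and 2.66 FPKM in HFHG and at 4.98, 5.01, 5.19 and 4.35 FPKM in LG. It fell by 45% with no overlap (log2 fold change -0.86 ± 0.07, adjusted p = 2.35e-07, limma). Msr1, a class A scavenger receptor for modified lipoproteins, was at 8.89, 9.49, 8.93 and 9.26 FPKM in HFHG and at 11.8, 12.4, 12.4 and 10.7 FPKM in LG, with a smaller log2 fold change of -0.36 ± 0.05 (adjusted p = 6.46e-05, limma). Cd14, the co-receptor for bacterial lipopolysaccharide, went the other way. Cd14 was at 31, 32, 31.9 and 31.4 FPKM in HFHG and at 24.9, 26.5, 25.501 and 28.5 FPKM in LG, so that each HFHG library lay above each LG library. It rose by 19.9% (log2 fold change 0.26 ± 0.04, adjusted p = 1.09e-04, limma), and of the 4 markers called higher it alone was called under every alternative tried. Mertk, which takes part in the uptake of dying cells, was at 1.12 to 1.36 FPKM in HFHG and 1.09 to 1.37 FPKM in LG, and its log2 fold change of -0.01 ± 0.11 did not pass the test (95% interval -0.24 to 0.23). Cd163, the haemoglobin scavenger receptor, had 15 reads in the 4 HFHG libraries together and 16 in the LG libraries, a ratio of 0.914 after scaling to the library totals (exact 95% interval 0.421 to 1.97, counting error only).

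**Figure D3:**
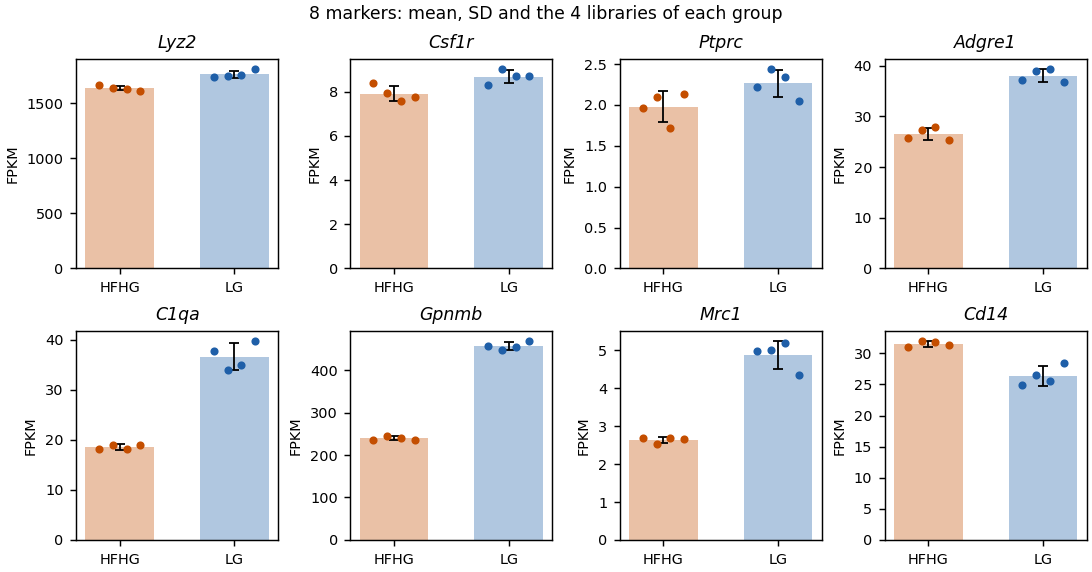
FPKM of 8 markers in HFHG and LG, with bars for the mean, error bars for the SD and points for the 4 libraries, each axis starting at 0. C1qa, Gpnmb and Mrc1 are well below the LG level in HFHG, Lyz2, Csf1r and Ptprc are close to it, and Cd14 is above it.

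Lysosomal, phagosomal and antimicrobial genes held the most abundant markers, and 6 of the 7 were lower in HFHG (30.8% of all tested genes were). Lyz2, which encodes the lysozyme of myeloid cells, was at 1662, 1638, 1633 and 1615 FPKM in HFHG and at 1736, 1751, 1761 and 1811 FPKM in LG, the 15th highest mean level of all genes. The groups did not overlap, yet Lyz2 fell by only 7.23% (log2 fold change -0.11 ± 0.02, adjusted p = 4.40e-04, limma), and under quantile normalization the sign turned (log2 fold change 0.01, adjusted p = 0.641), while rescaling to the same sum gave -0.05 (adjusted p = 0.00436). Gpnmb, a lysosomal membrane glycoprotein of macrophages and osteoclasts (chr6:49036546-49070929), was at 235, 246, 241 and 236 FPKM in HFHG and at 457, 447, 454 and 469 FPKM in LG. It fell by 47.6% (log2 fold change -0.93 ± 0.02, adjusted p = 4.75e-12, limma). The ratio of Gpnmb to Lyz2 within a library was 0.146 ± 0.00373 in HFHG and 0.259 ± 0.00341 in LG, with no overlap. Mpeg1, which encodes the pore-forming protein perforin-2, was at 26.1, 26.9, 27.2 and 27.1 FPKM in HFHG and at 44, 42.7, 41.7 and 40.9 FPKM in LG, and its log2 fold change was -0.66 ± 0.03 (adjusted p = 1.93e-09, limma).

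The other lysosomal markers changed less. Cd68, a membrane protein of endosomes and lysosomes, was at 37.6, 35.1, 30.7 and 34.3 FPKM in HFHG and at 40, 41.2, 45.8 and 43.1 FPKM in LG, and its log2 fold change was -0.31 ± 0.06 (adjusted p = 4.79e-04, limma). Lgmn, the asparaginyl endopeptidase legumain, ranged over 115 to 121 FPKM in HFHG and 132 to 138 FPKM in LG, and its log2 fold change was -0.20 ± 0.03 (adjusted p = 2.24e-05, limma). Laptm5, a lysosomal protein of haematopoietic cells, ranged over 28.7 to 29.9 FPKM in HFHG and 29.9 to 35.3 FPKM in LG, and its log2 fold change was -0.16 ± 0.04 (adjusted p = 0.00666, limma), or -0.10 after rescaling to the same sum (0.0468). The groups of all 3 genes stayed apart, for Laptm5 by a narrow margin. Cybb, the catalytic subunit of the phagocyte NADPH oxidase, was at 13.6, 13.4, 13.9 and 13.5 FPKM in HFHG and at 13.3, 12.8, 13 and 12.3 FPKM in LG. The HFHG values lay just above the LG values, but the log2 fold change of 0.08 ± 0.04 did not pass the test (adjusted p = 0.0829, limma), except after rescaling to the same sum (adjusted p = 0.0129).

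Among 6 leukocyte surface proteins, 4 were lower, 1 was higher and Ptprc was not called. Ptprc encodes CD45, the common leukocyte antigen, and was at 1.96, 2.1, 1.71 and 2.14 FPKM in HFHG and at 2.22, 2.44, 2.35 and 2.05 FPKM in LG. The groups overlapped, and the log2 fold change of -0.19 ± 0.09 did not pass the test (adjusted p = 0.0886, limma), whereas it passed without LG replicate 4 (0.0478), under median-ratio scaling (0.0444) and under quantile normalization (0.00854). Adgre1, which encodes the macrophage surface antigen F4/80, was at 25.7, 27.2, 27.9 and 25.3 FPKM in HFHG and at 37.2, 38.9, 39.3 and 36.7 FPKM in LG, and it fell by 30.2% with no overlap (log2 fold change -0.52 ± 0.04, adjusted p = 1.29e-07, limma). Cd53, a leukocyte tetraspanin, was at 16.1, 15.4, 15.4 and 15 FPKM in HFHG and at 22.9, 22.8, 22.8 and 22.2 FPKM in LG, and its log2 fold change was -0.55 ± 0.03 (adjusted p = 2.48e-08, limma). Ms4a7 and Ms4a6d belong to a family of membrane proteins with 4 transmembrane spans, encoded in a cluster on chromosome 19. Ms4a7 ranged over 12.6 to 14.9 FPKM in HFHG and 17.3 to 21.3 FPKM in LG (log2 fold change -0.52 ± 0.07, adjusted p = 1.78e-05, limma), and Ms4a6d over 12.2 to 13.1 and 16.2 to 16.4 FPKM (log2 fold change -0.37 ± 0.04, adjusted p = 1.64e-06, limma). Cd52, a small glycoprotein of leukocytes, was at 13.2, 11.9, 15.8 and 12.5 FPKM in HFHG and at 11.2, 8.76, 11.4 and 12.9 FPKM in LG, with overlap. Its log2 fold change of 0.27 ± 0.11 was called higher (adjusted p = 0.043, limma), and the call was lost without HFHG replicate 1 (0.0717), HFHG replicate 3 (0.132), LG replicate 1 (0.0604), LG replicate 2 (log2 fold change 0.16, 0.122) or LG replicate 3 (0.0566).

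The 2 chemokine receptors, which mark monocyte-derived and some resident macrophages, were close to 0. Cx3cr1 had 43 reads in the 4 HFHG libraries and 24 in the LG libraries (ratio 1.75, exact 95% interval 1.04 to 3.01, counting error only), and the difference of its FPKM did not pass an exact two-sided permutation test (p = 0.143). Ccr2 had 11 and 22 reads (ratio 0.487, exact 95% interval 0.213 to 1.05, permutation p = 0.286), and HFHG replicate 1 held most of the HFHG reads. Cd163 gave a permutation p of 0.8. The smallest p-value this test can give with 4 against 4 libraries is 0.0286.

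The cytoskeletal and signalling proteins of haematopoietic cells were lower with 1 exception. Plek, the protein kinase C substrate pleckstrin, ranged over 8.02 to 8.7 FPKM in HFHG and 10.1 to 11.9 FPKM in LG (log2 fold change -0.38 ± 0.05, adjusted p = 4.58e-05, limma). Hcls1, a cortactin-like protein of blood cells, ranged over 6.36 to 7.08 and 7.9 to 9.06 FPKM (log2 fold change -0.35 ± 0.06, adjusted p = 1.16e-04, limma). Lcp1, the actin-bundling protein L-plastin, ranged over 11 to 12.8 and 13.5 to 15.2 FPKM (log2 fold change -0.27 ± 0.06, adjusted p = 8.65e-04, limma). HFHG and LG values did not overlap for these 3 genes. Coro1a, the actin regulator coronin-1A, ranged over 3.13 to 3.41 and 3.46 to 3.95 FPKM, and its log2 fold change of -0.16 ± 0.06 (adjusted p = 0.0472, limma) lost its call without any 1 library other than LG replicate 3 (adjusted p 0.0522 to 0.138), and was -0.10 after rescaling to the same sum (0.208) and -0.25 under quantile normalization (0.0045). Aif1, which encodes the calcium-binding protein IBA1, was at 1.38, 1.38, 1.79 and 1.23 FPKM in HFHG and at 0.882, 1.13, 1.21 and 1.29 FPKM in LG. The groups overlapped, and the call (log2 fold change 0.33 ± 0.14, adjusted p = 0.0495, limma) was lost without any 1 of HFHG replicates 1, 2 and 3 or LG replicates 1, 2 and 3 (adjusted p 0.0539 to 0.157). The log2 fold change of Aif1 was 0.20 with a pseudocount of 1 (adjusted p = 0.0458) and 0.20 under quantile normalization (0.224).

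To compare the markers with each other, each was divided by Ptprc in the same library, and the difference of the mean log2 ratios was tested by exact permutation of the libraries (two-sided, 70 arrangements). The differences ran from -0.78 for C1qa to 0.52 for Aif1. None of 35 ratios passed after Benjamini-Hochberg adjustment over the 35, while 9 lower and 2 higher ratios reached the smallest possible p of 0.0286 before adjustment. Ptprc itself is a noisy divisor, with a coefficient of variation of 9.73% in HFHG and 7.39% in LG. With Csf1r as the divisor (4.5% and 3.52%), 20 ratios were lower and 5 higher by the same adjusted test, and all 25 had an exact permutation p of 0.0286. The 3 C1q chains, Gpnmb, Mrc1, Fcgr4, Mpeg1, Clec7a, Tyrobp, Fcer1g, Cd53 and Adgre1 were among the lower ones, with differences of -0.84 to -0.39, and Csf1, Cybb, Cd14, Cd52 and Aif1 were the higher ones (0.18 to 0.46). Lyz2 (0.02), Spi1 (0.01), Laptm5 (-0.03), Coro1a (-0.03) and Ptprc (-0.06) did not pass relative to Csf1r. With Tyrobp as the divisor, 23 ratios were higher and 3 lower, the lower ones being C1qa (-0.35), Gpnmb (-0.31) and Mrc1 (-0.24). A divisor subtracts its own log2 fold change from that of each marker, so the order of the markers is the same with any of them and the counts shift with the change of the divisor. The share of all tested genes that would pass the same ratio test was not computed, so these counts have no background beside them. In the limma fit, 34.0% of all tested genes were higher and 30.8% lower.

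**Figure D4:**
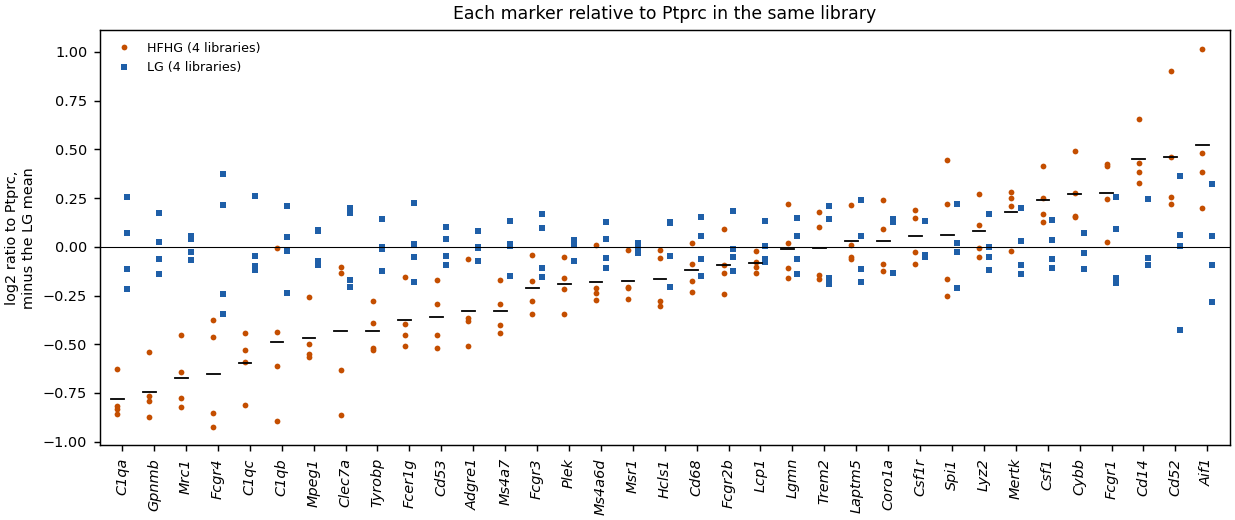
Log2 ratio of each of 35 markers to Ptprc in the same library, minus the LG mean, for HFHG (circles, with the mean as a line) and LG (squares). The means run from -0.78 (C1qa) to 0.52 (Aif1), and the 2 groups overlap for most markers.

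The spread between libraries of a group was wider than counting error in both media for 25 of the 36 tested markers, in 1 medium for 8 and in neither for 3 (Tyrobp, Ms4a6d and Coro1a). Gpnmb varied by 2.08% in HFHG and 2.06% in LG, where counting alone gives 0.548% and 0.402%. Cd68 varied by 8.25% and 6.02% beside 2.53% and 2.31% from counting. Tyrobp, at a higher level than Cd68 in LG, varied by 2.01% and 2.62% beside 3.37% and 2.75%. Fcgr1 varied by 16% and 17.6% beside 9.16% and 9.59%, and Aif1 by 16.6% and 15.6% beside 13.6% and 15.6%. The limma intervals therefore differ in width, from 0.08 on either side of the estimate or less for Csf1, Lyz2, Gpnmb, Lgmn, Tyrobp, Mpeg1, Cd53 and Ms4a6d to about 0.3 for Fcgr1, Clec7a and Aif1.

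Other genes of the myeloid lineage were read from the same fit, and higher and lower mean an adjusted p-value below 0.05 (limma) here too, with log2 fold changes and their standard errors in parentheses. Of 44 further myeloid and pan-leukocyte genes, 43 were tested, 23 were lower, 4 were higher and 16 did not pass, with a median log2 fold change of -0.27. Beside them, 30.8% of all tested genes were lower and 34.0% higher. Itgam, the alpha chain of the Mac-1 integrin CD11b, fell from 23.9 ± 0.667 FPKM in LG to 14.8 ± 0.61 in HFHG (log2 fold change -0.69 ± 0.04), and its partner Itgb2 fell from 20.6 ± 0.234 to 16.3 ± 0.864 (-0.34 ± 0.04). The 3 largest changes of this list were in low genes. Gpr84 and Ly86 stayed below 0.5 FPKM in every HFHG library and passed the filter through LG alone, which already fixed their direction. Gpr84, a receptor for medium-chain fatty acids, was at 0.267 ± 0.0657 FPKM in HFHG and 0.977 ± 0.231 in LG (-1.55 ± 0.19), Ly86, a Toll-like receptor partner, at 0.279 ± 0.092 and 0.672 ± 0.0806 (-1.05 ± 0.18), and Ltc4s, the leukotriene C4 synthase, at 3.62 ± 0.877 and 0.914 ± 0.269 (1.88 ± 0.19, higher in HFHG). Of the C-type lectin and immunoglobulin-like receptors above 10 FPKM, Clec4d (-0.24) and Lilrb4a (-0.11) were lower, Clec4n (0.13) was higher, but Lilrb4a and Clec4n lost their calls under other scalings (adjusted p up to 0.276 and 0.112), and Cd300c2 (-0.00) and Lilr4b (0.03) did not pass the test. Pld4 (-0.57) and Ncf1 (-0.24), the endolysosomal phospholipase family member and an NADPH oxidase subunit, were lower.

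Tissue-resident and activation genes were counted beside the same background as the markers (34.0% of all tested genes higher and 30.8% lower). Of 22 tissue-resident macrophage genes, 16 were tested, with 8 lower, 4 higher and 4 not called (median log2 fold change -0.25). Stab1, a scavenger receptor, was at 0.884 ± 0.0784 FPKM in HFHG and 2.16 ± 0.0952 in LG (-1.20 ± 0.09), and Ednrb, an endothelin receptor, at 0.64 ± 0.0663 and 1.49 ± 0.204 (-1.10 ± 0.12). Gas6, a bridging ligand for dying cells that fibroblasts also secrete, was at 264 ± 3.63 and 86.3 ± 2.71 FPKM (1.61 ± 0.03), and Selenop, a secreted selenium carrier, at 112 ± 2.82 and 52.7 ± 1.41 FPKM (1.08 ± 0.03). The chemokines Ccl8 (-0.10 ± 0.02) and Pf4 (0.05 ± 0.05) changed little, Ccl8 being called lower, but higher under quantile normalization (log2 fold change 0.10) and -0.05 after rescaling to the same sum, and Pf4 not called. Timd4, Vsig4 and Cd209d, further resident macrophage genes chosen after their values were seen, had at most 10 reads over the 4 libraries of a group.

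Of 17 activation genes, 13 were tested, with 6 lower, 4 higher and 3 not called (median log2 fold change -0.16). Nos2, the inducible nitric oxide synthase, was at 285 ± 4.99 FPKM in HFHG and 199.8 ± 2.02 in LG (0.51 ± 0.02), and Mmp12, the macrophage metalloelastase, at 146 ± 1.98 and 122 ± 3.5 FPKM (0.25 ± 0.03), both higher in HFHG. Il1b, the cytokine interleukin 1 beta, was low in both media but higher in HFHG (1.73 ± 0.354 against 0.459 ± 0.0795 FPKM, 1.70 ± 0.15), and so was the co-stimulatory ligand Cd80 (4.75 ± 0.682 against 2.38 ± 0.25 FPKM, 0.96 ± 0.10). The chemokines Ccl3 (-0.69 ± 0.07) and Ccl4 (-0.84 ± 0.11) were lower. So were Tnf (-0.62 ± 0.13), Cd86 (-0.60 ± 0.13), Acod1 (-0.36 ± 0.08) and Cd40 (-0.20 ± 0.07), named after their values were seen. The call of Cd40 was lost under some alternatives (adjusted p up to 0.0853, limma). Arg1 (0.09 ± 0.06) and Il1rn (0.06 ± 0.04) did not pass the test.

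Of 10 macrophage growth factors, attractants and their receptors, 8 were tested, with 4 higher, 1 lower and 3 not called (median log2 fold change 0.04). Beside them, 34.0% of all tested genes were higher and 30.8% lower. Il34, the second ligand of the Csf1r receptor, was at 3.85 ± 0.241 FPKM in HFHG and 2.79 ± 0.0963 in LG (0.45 ± 0.07), and Cx3cl1, the ligand of the Cx3cr1 receptor, at 4.31 ± 0.155 and 1.59 ± 0.115 (1.39 ± 0.07). The monocyte attractants were abundant, with Ccl2 at 1812 ± 44.6 and 2052 ± 75.4 FPKM (-0.18 ± 0.03, lower, or -0.02 under quantile normalization) and Ccl7 at 1468 ± 27.1 and 1220 ± 11 FPKM (0.27 ± 0.02, higher). The receptor subunit Csf2rb was slightly higher (0.11 ± 0.04, or 0.17 after rescaling to the same sum). The calls of Ccl2 and Csf2rb were lost under other scalings (adjusted p up to 0.588 and 0.144).

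**Figure D5:**
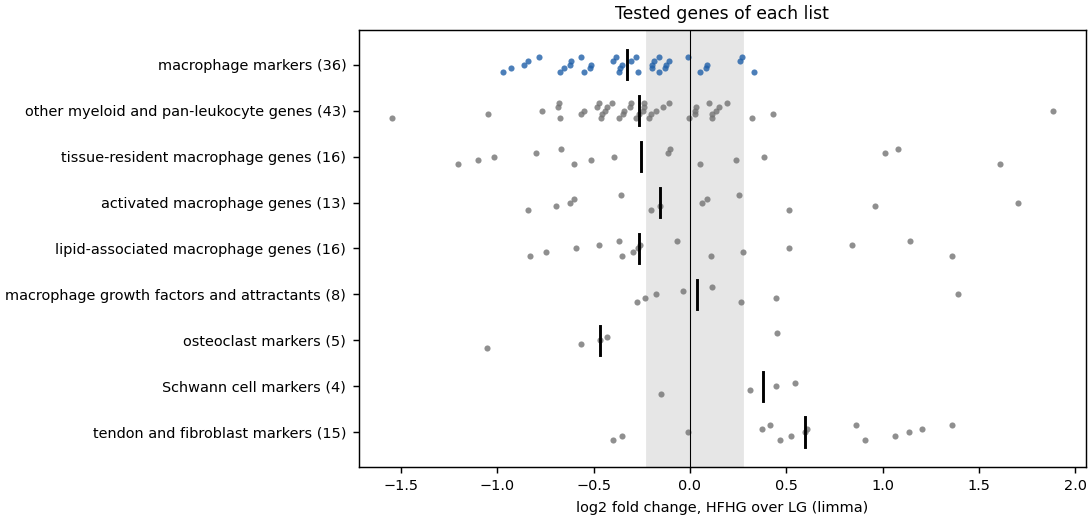
Log2 fold change (HFHG over LG, limma) of the tested genes of the macrophage marker list and of each other list with at least 4 tested genes, 1 point a gene, with the list median as a black bar and the number of tested genes in parentheses. The grey band spans the quartiles of all tested genes (-0.22 to 0.28), and the macrophage marker median lies at -0.33 and that of the tendon and fibroblast markers at 0.60.

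The culture was checked against markers of the labelled cell type and of other cells it could hold. All 15 tendon and fibroblast markers passed the filter on low values, with 12 higher in HFHG, 2 lower and 1 not called (median log2 fold change 0.60). For this and the other counts here, 34.0% of all tested genes were higher and 30.8% lower. The collagen gene Col1a1 was at 529 ± 8.68 FPKM in HFHG and 206 ± 3.95 in LG (1.36 ± 0.02), the receptor gene Pdgfra of fibroblasts at 22.2 ± 0.254 and 9.59 ± 0.263 (1.20 ± 0.04), and the matrix gene Thbs4 at 369.7 ± 4.29 and 168 ± 3.74 (1.14 ± 0.02). Tnc (1.06 ± 0.03), Col3a1 (0.91 ± 0.03), Thy1 (0.60 ± 0.02), Col1a2 (0.53 ± 0.02, or 0.84 under quantile normalization), Lum (0.47 ± 0.06), Prrx1 (0.42 ± 0.03) and Fmod (0.37 ± 0.03) were higher too, Egr1 (-0.40 ± 0.04) was lower, and the proteoglycan gene Dcn (-0.01 ± 0.03) was not called. Of the 3 genes most particular to tendon, named after their values were seen, the transcription factor Scx was at 2.27 ± 0.558 and 1.45 ± 0.336 FPKM (0.61 ± 0.19, higher), the glycoprotein Tnmd at 1.1 ± 0.0908 and 0.614 ± 0.298 (0.86 ± 0.28, higher, or 0.52 without LG replicate 1) and the transcription factor Mkx at 6.73 ± 0.536 and 8.62 ± 0.691 (-0.35 ± 0.07, lower). Summed over each list, dendritic cell markers reached at most 0.421 FPKM in any library, B cell markers 0.307, T and NK cell markers 1.35 and mast cell markers 1.8, of which Cma1 made up most. Among the neutrophil markers, S100a8 was at 30.5 ± 1.71 FPKM in HFHG and 80.4 ± 3.55 in LG (-1.39 ± 0.04) and Camp at 7.94 ± 0.621 and 5.65 ± 0.945 (0.50 ± 0.10), while the defining genes S100a9, Ly6g, Mpo and Elane had at most 11 reads over the 4 libraries of a group. S100a9, Ly6g, Mpo, Elane and Cma1 were named after their values were seen. Endothelial markers summed to 5.07 to 6.43 FPKM in HFHG and 4.53 to 5.92 in LG, mural cell markers to 7.58 to 8.81 and 3.94 to 4.66, Schwann cell markers to 5.16 to 5.87 and 3.93 to 4.83, and skeletal muscle markers to 0.741 to 1.83 and 3.55 to 4.37. By call, the endothelial list had 2 higher (Tek and Egfl7, both lost under some alternatives) and 1 lower (Vwf, -1.20 ± 0.12) of 3 tested genes. The mural list had 2 higher of 2 (Notch3, 1.10 ± 0.08, and Mcam, 0.47 ± 0.11), and the Schwann list 1 higher of 4 (Sox10, 0.55 ± 0.09). The muscle list had 1 lower of 1 (Acta1, -1.82 ± 0.16), the T and NK list 1 lower of 1 (Lck, -0.95 ± 0.16) and the mast cell list none of 1. Vwf and Lck stayed below 0.5 FPKM in every HFHG library and passed the filter through LG alone, which already fixed their direction. The macrophage markers summed to 2850 to 2903 FPKM in HFHG and 3328 to 3433 FPKM in LG. Without Csf1, which stromal cells also make, they summed to 2400 to 2452 FPKM in HFHG and 2893 to 2997 FPKM in LG. The full sum lay above every one of these lists in each library, except the tendon and fibroblast list. That list summed higher than the macrophage markers in HFHG (3022 to 3076 FPKM) and lower in LG (1937 to 1975 FPKM). These sums depend on which genes were listed and on a few abundant ones, such as Lyz2 at 1765 ± 32.6 FPKM in LG. They do not compare the amounts of macrophage and tendon cell RNA.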

How the data were processed

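mRNA of primary mouse TSCs was sequenced in 8 libraries, 4 from HFHG medium (glucose at 25.5 mM, palmitic acid at 300 µM) and 4 from LG medium, grouped by the labels. Libraries were made with a stranded kit. Per the submitters' processing notes, HISAT2 2.1.0 and mm10 were used. The counting program, the annotation and the handling of reads shared by similar genes are not given in the sources used here. The authors deposited FPKM per gene and library, without pooling. Whole reads and library totals could be recovered from the FPKM for 19301 of 19301 genes (tolerance 1e-04 reads), and they gave depths, counting errors and intervals.

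Genes with at least 0.5 FPKM in at least 4 of 8 libraries were compared with limma 3.58.1 (trend, R 4.3.3) on log2(FPKM + 0.1) without covariates, with Benjamini-Hochberg adjustment over 11710 genes. On simulated data, the fit found 88 of 100 genes with an absolute log2 fold change of 0.5 and 95 of 100 at 1, and called 14 unchanged genes. The simulation used independent noise and changed only these genes among 11710, far fewer than were called in the real data. Changes below 0.5 were not simulated, so these shares may not hold for the markers. Ratios between markers and the 3 low markers were compared with exact two-sided permutation tests. Other lists were described by counts and medians, and named were all 39 markers and, per list, the 3 called genes with the largest change and genes at 10 FPKM or more. The markers, lists, tests and alternatives were chosen with earlier results of these data known, so counts of called markers are descriptions. Promoters came from RefSeq (GRCm38.p6) and gene positions from GENCODE M21, both matched by symbol. The alternatives were other pseudocounts, filters and scalings, a robust fit, limma-voom on the recovered reads, the replicate number as a block, and each library left out.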

Additional observations from a re-analysis of the deposited data

Results flagged for a closer look

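Fcgr2b, the inhibitory Fc gamma receptor, was at 22.1 FPKM in LG replicate 1, while the other 3 LG libraries lay between 25.23 and 25.48 FPKM. The gap to the nearest library was 0.927 of the whole range, above Dixon's 95% critical value. Of 72 groups of 4 libraries examined (36 markers in 2 media), this was the only one, where chance alone would mark about 1 in 20. Without LG replicate 1, Fcgr2b was still lower in HFHG (adjusted p = 5.92e-05, limma).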

How the results depend on the processing

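Of 648 pairs of a tested marker and an alternative, 590 kept the direction and the side of the threshold, 46 lost the call, 4 gained one and 8 changed sign, with no call under the alternative. These were Lyz2 under quantile normalization (log2 fold change 0.0062), Fcgr1 under quantile normalization (-0.047) and without LG replicate 4 (-0.017), and Mertk after rescaling to the same sum (0.046) and without HFHG replicate 2 (0.029), HFHG replicate 3 (0.031), LG replicate 2 (0.037) or LG replicate 4 (0.013). Without single libraries, Fcgr1 ranged from -0.017 to 0.17 and Mertk from -0.063 to 0.037. Of the 27 markers called lower, 23 were so under every alternative that tested them, and of the 4 called higher, Cd14 alone. The count of markers called higher was 2 with no filter on low values, 1 under median-ratio scaling, 2 under quantile normalization, 2 with limma-voom on the recovered reads, and 1 to 4 without single libraries. After rescaling to the same sum, Cybb was called higher in addition to those 4 (log2 fold change 0.14, adjusted p = 0.0129, limma). The count past the fold change of the study's methods was 1 under median-ratio scaling and 0 to 1 without single libraries. The cause of these shifts was not tested. The counts of ratios called higher (0 with Ptprc, 5 with Csf1r and 23 with Tyrobp) and lower (0, 20 and 3) differ by construction, since each divisor subtracts its own log2 fold change and adds its own spread. The floor of the permutation p also lets ratios pass the adjustment only when most of them reach it. With a pseudocount of 1, genes of the other lists near 1 FPKM kept their calls with smaller log2 fold changes, among them Il1b (0.90), Gpr84 (-0.64), Ly86 (-0.39), Stab1 (-0.75), Ednrb (-0.60), Vwf (-0.55), Lck (-0.40), Acta1 (-1.21), Mmp9 (-0.31), Mcam (0.30), Tek (0.22) and Tnmd (0.40).

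The replicate numbers were shared by the groups, but deviations of same-numbered libraries did not go together (correlations -0.07 to -0.01), and no library correlated best with its own number. With the replicate block, 25 markers were called lower and 3 higher. Csf1 (adjusted p = 0.123), Csf1r (0.0675) and Coro1a (0.078) lost their calls. For the ratios, leaving out a library or blocking was not run, since the smallest p would be 0.0571 and 0.125. Counting error was largest for the 3 markers with under 50 reads a group, and next for Aif1 (13.6% in HFHG and 15.6% in LG).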

Other observations

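Genes of lipid handling and lysosomal digestion that lipid-associated macrophages share with other cells were read from the same fit. Of 16 such genes, all tested, 9 were lower in HFHG, 6 higher and 1 not called (median log2 fold change -0.27), where 30.8% of all tested genes were lower and 34.0% higher. The fatty acid binding protein Fabp4 was at 68.4 ± 3.03 FPKM in HFHG and 26.6 ± 2.61 in LG (1.36 ± 0.06), the fatty acid transporter Cd36 at 11.7 ± 0.487 and 5.24 ± 0.276 (1.14 ± 0.05), and the lipid droplet coat protein Plin2 at 541 ± 7.91 and 302 ± 6.47 (0.84 ± 0.02). Lpl (0.28 ± 0.02) and Cd9 (0.11 ± 0.02) were also higher. The apolipoprotein gene Apoe was at 10.1 ± 0.461 and 18.2 ± 0.643 FPKM (-0.83 ± 0.04), and the lectin gene Lgals3 at 528 ± 11.9 and 887 ± 38.6 FPKM (-0.75 ± 0.03). The lysosomal proteases Ctsb (-0.59 ± 0.02), Ctsl (-0.35 ± 0.02) and Ctsd (-0.37 ± 0.02), the tetraspanin gene Cd63 (-0.47 ± 0.03), the cholesterol carrier gene Npc2 (-0.30 ± 0.03), the acid lipase gene Lipa (-0.26 ± 0.03) and Fabp5 (-0.27 ± 0.03) were lower as well, and Abca1 (-0.07 ± 0.06) did not pass the test. Several of these values depended on the scaling. Under quantile normalization the log2 fold change was -0.09 for Cd63, -0.09 for Npc2, -0.20 for Ctsd, -0.18 for Ctsl and -0.49 for Lgals3, all still lower, and Cd9 lay between 0.07 (median-ratio scaling) and 0.17 (rescaled to the same sum).

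Osteoclasts arise from the same precursors as macrophages and share Gpnmb with them. Of 10 osteoclast markers, 5 were tested, with 4 lower and 1 higher (median log2 fold change -0.47), where 30.8% of all tested genes were lower and 34.0% higher. Itgb3, the beta 3 integrin, was at 6.84 ± 0.17 FPKM in HFHG and 14.3 ± 0.708 in LG (-1.05 ± 0.05), the acid phosphatase gene Acp5 at 2.33 ± 0.175 and 3.25 ± 0.162 (-0.47 ± 0.08), and the gelatinase gene Mmp9 at 0.806 ± 0.112 and 1.24 ± 0.214 (-0.57 ± 0.14). Atp6v0d2 (-0.43 ± 0.05) was lower too, and Nfatc1 (0.45 ± 0.07) was the 1 called higher. Below the filter, Calcr, Ocstamp and Dcstamp had at most 44 reads over the 4 libraries of a group. Oscar had 55 reads in HFHG and 39 in LG, and Tnfrsf11a had 245 and 199. The genes from Atp6v0d2 on were named after their values were seen.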
